A study of Mus musculus with 2 samples.

Results

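The cells described here are 111 barcodes of vessel endothelium from the liver library labelled E18.5, out of 4721 barcodes that passed the quality limits in that library and 19642 deposited in the series. They were chosen by their own counts. A barcode had to hold at least 4 UMIs (unique molecular identifiers, each standing for 1 captured RNA molecule) summed over Mecom, Nrg1, Adgrg6 and Ntn4, and at least 2 summed over the general endothelial genes Ptprb, Flt1, Tek and Cdh5. It also had to hold fewer than 5 UMIs of Rspo3, a marker of central vein endothelium, fewer than 3 summed over the sinusoidal genes Stab2, Gpr182, Oit3 and Clec4g, and at most 1 summed over the mesenchymal genes Dcn, Col1a1 and Col3a1. Members made up 2.35% of the barcodes kept (95% interval 1.94 to 2.82%) and 400474 UMIs.

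The series holds droplet-based 3′ libraries of dissociated liver cells from 2 mice, 1 with the stage label E18.5 (embryonic) and 1 with P180 (postnatal day 180). Both livers grew in Hhex knockout hosts into which tdTomato-positive tetraploid (4N) ESCs, or embryonic stem cells, had been injected as blastocysts, so the knockout, the injection and the ploidy of the donor cells are shared by both groups. Whether a given cell came from the host or from the donor was not measured in the gene table, which holds 0 tdTomato features. Each label has 1 library, so cells of 1 animal are described, no test was made, and every interval covers counting error only. The makeup of the libraries goes against their stage labels, since 1308 barcodes met the B cell minimum and 484 the T cell minimum under E18.5, against 220 and 15 under P180, so libraries are named by their label throughout.

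Endothelial cells line all blood vessels, and those of the liver differ by position. Sinusoids are the thin, scavenging capillaries between plates of hepatocytes, the central vein drains them and supplies Wnt signals to neighbouring hepatocytes, and portal veins and hepatic arteries bring the blood in. Mecom encodes a zinc finger transcription factor, Nrg1 the growth factor neuregulin 1, Adgrg6 an adhesion G protein-coupled receptor, Ntn4 the basement membrane protein netrin 4, and Timp3 a matrix-bound inhibitor of metalloproteinases. Arterial endothelium is known for Notch signalling and for the gap junction protein encoded by Gja5.

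The promoters of 3 genes outside the rule that were higher in members than in both other endothelial classes described below are shown here. They were chosen after their values were seen, as genes of the arterial list that encode a junction protein and secreted or membrane-bound signals. Each sequence is the 250 bases before the gene's start in RefSeq (GRCm38.p6), read 5′ to 3′ on the gene's strand. Gja5 encodes connexin 40, and its window is chr3:97032152-97032401 on the plus strand. Jag1 encodes a Notch ligand, and its window is chr2:137116521-137116770 on the minus strand. Vegfc encodes a growth factor for lymphatic and venous endothelium, and its window is chr8:54077282-54077531 on the plus strand. Capitals mark matches to CAGGAA (an ETS factor core), TGGGAA (an RBPJ core) or ACAAAG (a SOX core), searched on both strands.

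Gja5: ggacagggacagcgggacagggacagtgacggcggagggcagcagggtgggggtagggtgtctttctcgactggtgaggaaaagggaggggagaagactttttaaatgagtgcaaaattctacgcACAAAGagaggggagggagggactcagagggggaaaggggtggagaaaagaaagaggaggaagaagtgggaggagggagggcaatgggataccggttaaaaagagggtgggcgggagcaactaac

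Jag1: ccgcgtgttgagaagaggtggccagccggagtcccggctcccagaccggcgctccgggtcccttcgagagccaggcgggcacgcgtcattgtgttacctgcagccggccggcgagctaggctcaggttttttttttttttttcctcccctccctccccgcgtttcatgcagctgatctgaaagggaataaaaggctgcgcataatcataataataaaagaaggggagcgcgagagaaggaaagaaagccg

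Vegfc: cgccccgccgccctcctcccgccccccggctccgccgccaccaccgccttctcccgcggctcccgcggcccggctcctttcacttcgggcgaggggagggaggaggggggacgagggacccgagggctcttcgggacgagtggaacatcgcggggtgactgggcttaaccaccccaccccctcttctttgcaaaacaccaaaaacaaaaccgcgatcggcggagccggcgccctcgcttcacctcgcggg

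The Gja5 window held 1 SOX match and no match to the other motifs, while those of Jag1 and Vegfc held 0 matches to any of the 3. Of 32851 RefSeq promoter windows of this length, 25.7% held the ETS core, 21.6% the RBPJ core and 16.5% the SOX core. The windows of Mecom, Adgrg6 and Ntn4 likewise held 0 matches. A match or its absence describes these letters only.

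The rule genes lie at separate places in the genome (GRCm38, GENCODE annotation). Mecom lies at chr3:29951296-30548008 on the minus strand, Nrg1 at chr8:31814551-32884029 on the minus strand, Adgrg6 at chr10:14402583-14545659 on the minus strand and Ntn4 at chr10:93640681-93747207 on the plus strand. Timp3, at chr10:86300372-86349506 on the plus strand, lies within the span of Syn3 on the other strand, and reads of overlapping genes cannot be told apart unless the counting used strand, on which the sources used here say nothing.

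The members had a median of 2894 UMIs (698 to 22026) and 1513 genes per cell, with a median mitochondrial share of 14.1%. They were set beside 379 sinusoidal barcodes (median 2490 UMIs, 15.9% mitochondrial) and 72 central vein barcodes (median 2791 UMIs, 14.5% mitochondrial) of the same library. The sinusoidal barcodes reached the sinusoidal minimum but not that of the vessel genes. The central vein barcodes reached the Rspo3 minimum but not that of the vessel or sinusoidal genes. A vessel sum under 4 in both was thus set by choice. A further 97 barcodes with at least 2 general endothelial UMIs reached both the Rspo3 and the vessel minimum, with a median of 6805 UMIs. They fall in none of the 3 classes, so the central vein barcodes leave out deeper ones with Rspo3. Members were 19.8% of these 3 classes, 24.6% with a mitochondrial limit of 10% and 14.7% without one, so the share moves with that limit.

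Of the 5 marker genes, 4 were high in members by choice, and Timp3 was listed with earlier results of these data known. All are given as a description. Levels are given in CPM, in which the UMIs of each class are brought to the same total. Mecom stood at 2522 CPM (95% interval 2369 to 2682) in members, 43.2 in sinusoidal and 128 in central vein barcodes. Nrg1 stood at 1785 CPM in members, at 0 of 1225911 UMIs in sinusoidal barcodes (upper 95% limit 3.01 CPM) and at 11.3 CPM in central vein barcodes. Adgrg6 stood at 1116, 11.4 and 33.8 CPM in the same order, and Ntn4 at 1069, 185 and 143 CPM. All 4 genes were found together in 60 members, 3 of them in 34, 2 in 11 and 1 in 6. The sum over the 4 ran from 4 to 106 UMIs with a median of 15, and 10 members had no Mecom UMI.

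Timp3, which the rule did not use, was found in 91.0% of members at 1421 CPM (1306 to 1543). It was also found in 64.4% of sinusoidal and 72.2% of central vein barcodes. Its level in members was 2.66-fold higher than in sinusoidal barcodes (2.37 to 2.98) and 2.03-fold higher than in central vein barcodes (1.71 to 2.40). Just inside the minimum, the 6 barcodes with a sum of exactly 4 held 762 CPM of Timp3, which is 23 UMIs. Just outside it, the 12 barcodes with a sum of 3 that met all other limits held 279 CPM, which is 21 UMIs. The leukocyte gene Ptprc had 26 UMIs in 2 of those 12 and 3 UMIs in 1 of the 6. With so few cells, nothing is read from this difference in Timp3. In B cells, which should lack the marker genes and had a median of 4940 UMIs, 0.917% of barcodes held a Mecom UMI and 1.30% a Timp3 UMI. Other classes did hold some of the markers. In bile duct cells, with a median of 11786 UMIs, Timp3 was found in 42.5% (91.7 CPM), Adgrg6 in 54.2%, Ntn4 in 41.2%, Nrg1 in 15.7% and Mecom in 1.31%. Timp3 was found in 41.7% of mesenchymal cells, at 247 CPM.

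**Figure D1:**
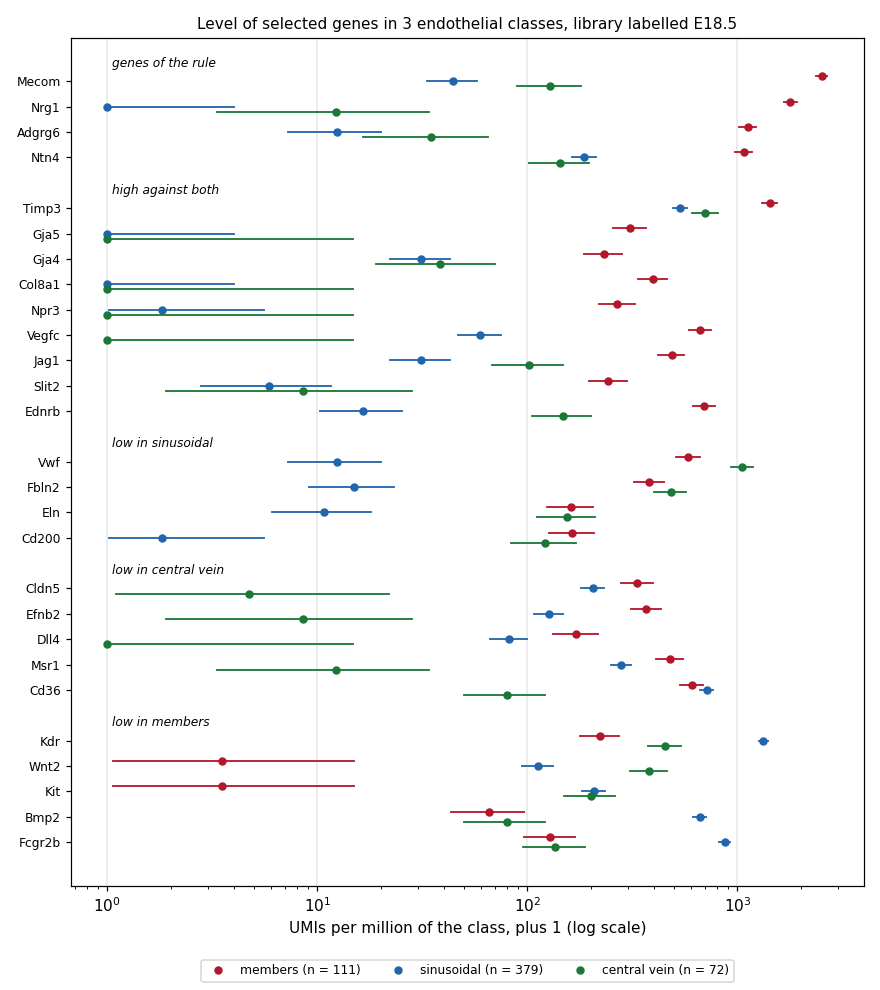
Levels of 27 genes in members, sinusoidal and central vein barcodes, as CPM plus 1 on a log axis, with bars for the 95% counting interval. Gja5 and Col8a1 stand above 300 CPM in members and at 0 UMIs in both other classes, while Wnt2 and Kit stand at 2.50 CPM in members.

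Against sinusoidal barcodes, 156 of 4473 genes (3.49%) were at least 2-fold higher in members and 343 (7.67%) at least 2-fold lower, among genes with at least 50 UMIs in either class and without the rule genes. Against central vein barcodes, 160 of 1680 genes (9.52%) were higher and 97 (5.77%) lower. Of 1665 genes counted in both comparisons, 72 (4.32%) were higher than in both classes and 27 (1.62%) lower than in both. The median log2 ratio over all genes was -0.01 against sinusoidal and 0.09 against central vein barcodes. The classes were separated by measured values of the same cells, so nothing is read from these counts beyond their size. The minimum also sets part of them, since 44 of the 156 higher genes reached 50 UMIs in members alone and 300 of the 343 lower genes in sinusoidal barcodes alone. Against central vein barcodes, 136 of the 160 higher genes reached it in members alone and 65 of the 97 lower genes in central vein barcodes alone.

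Of the 15 arterial genes counted against sinusoidal barcodes, 11 were at least 2-fold higher in members and 1 was lower, beside 3.49% and 7.67% of all genes. Their median log2 ratio was 2.93, beside -0.01 over all genes. The list holds 25 genes, and 7 of the 11 reached 50 UMIs in members alone, so that they had to be higher; of the 7 counted genes that reached it in both classes, 4 were higher and 1 was lower. With cells thinned to 1000 UMIs the median was 1.57, where 5 genes were left. It turned to -0.26 at a minimum of 200 UMIs, where 4 genes were left. Against central vein barcodes, 9 of 14 were higher and 1 was lower, beside 9.52% and 5.77% of all genes. The median there was 2.44 beside 0.09, and all 9 reached the minimum in members alone. These counts and medians are therefore a description, from which nothing is drawn about the kind of vessel. Gja5 had 123 UMIs in 43.2% of members, at 307 CPM (255 to 366), and 0 UMIs in both other classes. With the sinusoidal count set to a floor of 3, the ratio to sinusoidal barcodes was 125.5. The lower 95% limits of the ratio are 100.5 against sinusoidal and 21.9 against central vein barcodes. Gja4, which encodes connexin 37, stood at 230 CPM in members, 30.2 in sinusoidal and 37.5 in central vein barcodes.

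Notch ligands were among the arterial genes that stood apart. Jag1 stood at 484 CPM in members, 16.1-fold higher than in sinusoidal (11.2 to 23.5) and 4.78-fold higher than in central vein barcodes (3.19 to 7.45). Dll4 stood at 170 CPM in members, 80.8 in sinusoidal barcodes and 0 UMIs in central vein barcodes. Among Notch targets, Nrarp stood at 137 CPM in members and 31.0 in sinusoidal barcodes, with 4 UMIs in central vein barcodes, whereas Hes1 stood at 232, 191 and 63.8 CPM. The receptor Notch1 was within 2-fold in both comparisons, and Hey2, a target found in arteries, had 0 UMIs in members. Of the Notch pathway list, 3 of 11 genes were higher against sinusoidal and 4 of 8 against central vein barcodes, with 0 lower. The shares higher over all genes were 3.49% and 9.52%. Of the higher Notch genes, 2 of the 3 and all 4 reached the minimum in members alone.

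Vegfc, Efnb2 and Sox17 were also highest in members. Vegfc stood at 664 CPM in 73.9% of members, at 58.7 CPM in sinusoidal barcodes and at 0 UMIs in central vein barcodes. Efnb2, an ephrin ligand of arteries, stood at 367 CPM in members, 2.92-fold higher than in sinusoidal barcodes (2.31 to 3.69), and had 2 UMIs in central vein barcodes. Sox17, a transcription factor of arterial endothelium, stood at 150, 58.7 and 18.8 CPM. Not every gene of the arterial list was high, since Sema3g had 1 UMI and Gkn3 had 0. Mgp, which encodes matrix Gla protein, had 97 UMIs in 11 members, 54 of them in 1 cell, so its level rests on few cells.

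Genes known from veins were found in the same cells. Nr2f2, a transcription factor of venous endothelium, stood at 944 CPM in 83.8% of members, 614 in sinusoidal and 889 in central vein barcodes. Of the 48 members with a Gja5 UMI, 43 also held Nr2f2. The venous list had 2 of 9 genes higher and 2 lower against sinusoidal barcodes, beside 3.49% and 7.67% of all genes. Against central vein barcodes it had 0 of 10 higher and 4 lower, beside 9.52% and 5.77% of all genes. Selp, which encodes the leukocyte adhesion protein P-selectin, stood at 47.4 CPM in members and 420 CPM in central vein barcodes. The label of vessel endothelium rests on 4 markers of which the rule required a sum of at least 4 UMIs. Timp3, the 1 marker the rule did not use, was listed with earlier results known and was found in both other classes. Genes known from arteries and from veins occurred in the same members.

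**Figure D2:**
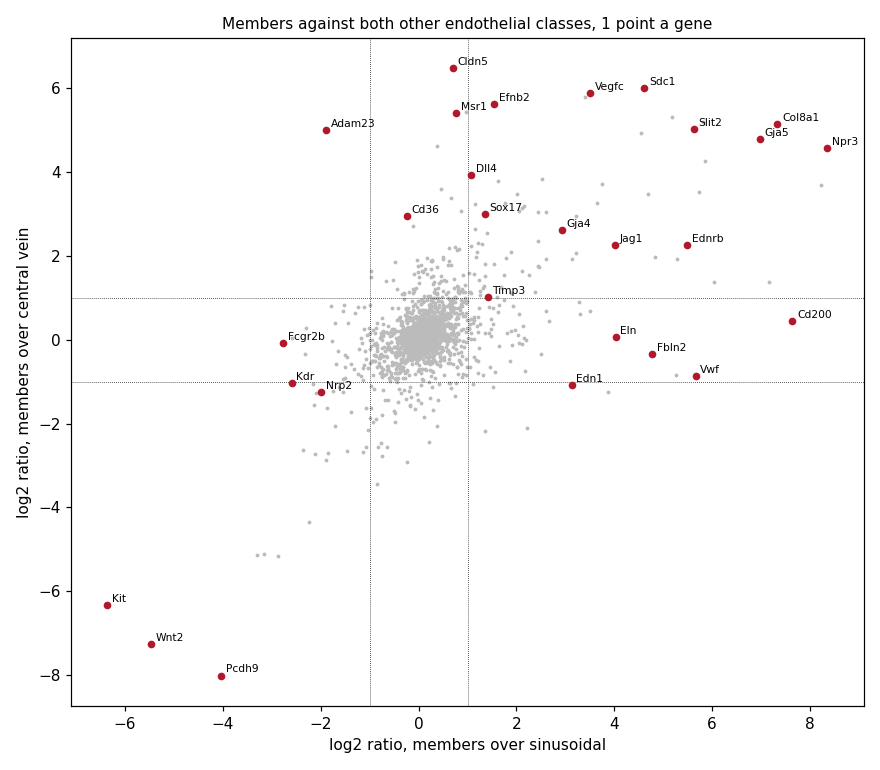
Log2 ratio of members over sinusoidal (x axis) and over central vein barcodes (y axis) for 1665 genes, 1 point a gene, with dotted lines at 2-fold and genes at 0 UMIs set to a floor of 3 counts. Gja5, Col8a1, Jag1 and Ednrb lie at the upper right, Vwf and Fbln2 at the right near the central vein level, Cldn5 and Msr1 at the top, and Wnt2 and Kit at the lower left.

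Genes of other kinds were also at least 2-fold higher than in both classes. Col8a1, which encodes a short-chain collagen of vessel walls, stood at 395 CPM in 32.4% of members and had 0 UMIs in both other classes. Npr3, the clearance receptor for natriuretic peptides, stood at 267 CPM and had 1 UMI in sinusoidal and 0 in central vein barcodes. Slit2 and Slit3, secreted guidance proteins that bind Robo receptors, stood at 242 and 130 CPM, and Slit3 had 0 UMIs in both other classes. Ednrb, the endothelin receptor type B, stood at 694 CPM in members, 15.5 in sinusoidal and 146 in central vein barcodes.

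By the ranking rule, 9 of the 20 genes highest against sinusoidal barcodes were also among the 20 highest against central vein barcodes. They were Atp13a3, Cmklr1, Col8a1, Gja5, Npr3, Sdc1, Slit2, Spon1 and Vegfc. Atp13a3, a polyamine transporter, stood at 682, 29.4 and 22.5 CPM in members, sinusoidal and central vein barcodes. Plagl1, an imprinted zinc finger gene, stood at 250, 26.9 and 60.0 CPM. The fetal growth list, to which Plagl1 belongs, had 7 of 15 genes at 0 UMIs in members, Lin28b and Dlk1 among them. Mest and Cdkn1c, both imprinted, stood at 147 and 82.4 CPM in members and at 81.6 and 31.8 CPM in sinusoidal barcodes, and Grb10 stood at 150 and 154 CPM.

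A second group was high in members and in central vein barcodes and low in sinusoidal barcodes. Of the 1665 genes, 63 (3.78%) were at least 2-fold higher than in sinusoidal and within 2-fold of central vein barcodes. Vwf, which encodes von Willebrand factor of larger vessels, stood at 579 CPM in members, 11.4 in sinusoidal and 1054 in central vein barcodes. Fbln2, an elastic fibre protein, stood at 380, 13.9 and 480 CPM, and Eln, which encodes elastin, at 160, 9.79 and 154 CPM. Cd200, a surface protein that restrains myeloid cells, stood at 162, 0.816 and 120 CPM, the sinusoidal value being 1 UMI. Edn1, which encodes endothelin 1, was 1 of 6 genes (0.36%) that were higher than in sinusoidal and lower than in central vein barcodes, and it had 57 UMIs in members, 20 in sinusoidal and 80 in central vein barcodes.

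Another group was lower in central vein barcodes and within 2-fold of sinusoidal barcodes. Of the 1665 genes, 87 (5.23%) were at least 2-fold higher than in central vein and within 2-fold of sinusoidal barcodes. Outside this group, Adam23, which encodes a disintegrin of the cell surface, was the 1 gene (0.0601%) that was higher than in central vein and lower than in sinusoidal barcodes, at 237, 876 and 7.50 CPM. Cldn5, a tight junction protein, stood at 332 CPM in members, 204 in sinusoidal and 3.75 in central vein barcodes. Msr1, a scavenger receptor, stood at 474, 278 and 11.3 CPM, and Cd36, a fatty acid transporter, at 604, 712 and 78.8 CPM. Lama4, a laminin chain of vessel basement membranes, stood at 460, 299 and 101 CPM.

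Sinusoid genes were low in members beside sinusoidal barcodes but not beside central vein barcodes. Of the 16 counted outside the rule, 0 were higher and 11 lower than in sinusoidal barcodes, beside 3.49% and 7.67% of all genes. Their median log2 ratio was -1.68, and 4 of the 11 reached the minimum in sinusoidal barcodes alone. Without the rule's limit on sinusoidal genes that median was -0.79. Against central vein barcodes, 3 of 13 sinusoid genes were higher and 1 lower, beside 9.52% and 5.77% of all genes, with a median of 0.03. Kdr, the main receptor for VEGF-A, stood at 220 CPM in members and was 6.02-fold higher in sinusoidal (4.86 to 7.55) and 2.05-fold higher in central vein barcodes (1.54 to 2.73). Bmp2, a growth factor that controls hepatocyte iron sensing, stood at 64.9 CPM in members and 659 in sinusoidal barcodes. Fcgr2b, an Fc receptor of sinusoids, stood at 127 and 868 CPM.

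Of the 9 central vein genes counted against central vein barcodes, 8 were lower in members and 0 higher, beside 5.77% and 9.52% of all genes. Their median log2 ratio was -4.54, and 7 of the 8 reached the minimum in central vein barcodes alone. Among the 8 was Cdh13, which encodes T-cadherin and was abundant all the same, at 1348 CPM in members, 472 in sinusoidal and 2963 in central vein barcodes. Rspo3 had 0 UMIs in members although the rule allows up to 4 in a barcode. Wnt2 and Kit, a Wnt ligand and a receptor tyrosine kinase, had 1 UMI each in members. Wnt2 had 136 UMIs in sinusoidal and 101 in central vein barcodes, and Kit had 252 and 53. Wnt9b had 0 UMIs in members and 60 in central vein barcodes. Of 9 lymphatic genes, 6 had 0 UMIs in members, among them Prox1, Pdpn, Ccl21a, Mmrn1 and Reln. Lyve1 and Flt4, which sinusoids express as well, had 32 and 53 UMIs in members, at 79.9 and 132 CPM beside 238 and 381 CPM in sinusoidal barcodes.

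**Figure D3:**
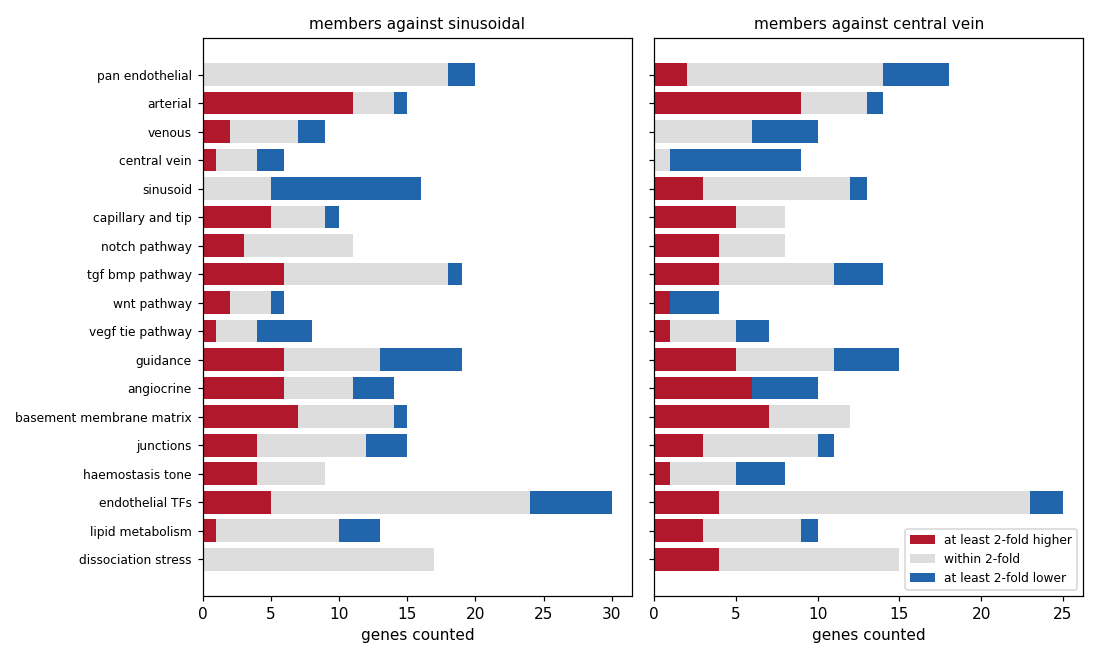
Number of genes in 18 gene lists that were at least 2-fold higher (red), within 2-fold (grey) or at least 2-fold lower (blue) in members, against sinusoidal (left) and central vein barcodes (right). The arterial list has 11 of 15 and 9 of 14 genes in red, of which 7 and 9 reached the minimum of 50 UMIs in members alone, and the central vein list 8 of 9 in blue on the right.

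Receptors for 2 of the marker proteins were looked at in the members themselves. The neuregulin receptor genes Erbb3 and Erbb4 had 0 UMIs in members, and Erbb2 had 5. In bile duct cells of the same library, Erbb4 stood at 1316 CPM and Erbb3 at 50.6 CPM. Among netrin receptors, Unc5b had 7 UMIs and Dcc 0 in members. The 4 genes of the netrin list that were counted against sinusoidal barcodes were all within 2-fold. The integrin genes Itgb1 and Itga6 stood at 352 and 182 CPM in members, and Itga6 at 97.9 CPM in sinusoidal and 82.5 CPM in central vein barcodes. Among 23 adhesion receptor genes listed, Adgrl2, Adgrf5 and Adgrl4 stood at 799, 604 and 425 CPM in members and within 2-fold of both other classes, and 10 had 0 UMIs.

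Growth factor pathways differed by member. In the TGF-beta and BMP list, 6 of 19 genes were higher and 1 lower against sinusoidal barcodes, beside 3.49% and 7.67% of all genes, with a median log2 ratio of 0.00402. Against central vein barcodes, 4 of 14 were higher and 3 lower, Bmp4, Tgfb2 and Eng, beside 9.52% and 5.77%, with a median of -0.58. Id1, a BMP target, stood at 207 CPM in members, 56.3 in sinusoidal and 48.8 in central vein barcodes. Bmper, a secreted regulator of BMP, stood at 207, 19.6 and 3.75 CPM. In the Wnt list, 2 of 6 genes were higher and 1 lower than in sinusoidal barcodes, beside 3.49% and 7.67% of all genes. Against central vein barcodes, 3 of 4 were lower and 1 higher, beside 5.77% and 9.52%. The 3 lower genes reached the minimum in central vein barcodes alone, and the 1 higher gene in members alone. Tspan12, a co-receptor for Norrin signalling, was that gene, at 145 CPM in members and 48.8 CPM in central vein barcodes. Division genes were rare, with Mki67 at 4 UMIs in 1.80% of members.

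Members differed among themselves. The 48 with a Gja5 UMI had a median of 3242.5 UMIs and a mitochondrial share of 12.1%, and the 63 without one had 2361 UMIs and 15.2%. This split was chosen after the values were seen, and depth differs between its sides. After each cell was thinned to 1000 UMIs, which left out 3 cells, Col8a1 was found in 31.9% of 47 members with Gja5 and 9.84% of 61 without. Slit2 was found in 23.4% and 8.20%, Fbln2 in 31.9% and 16.4%, and Vwf in 51.1% and 32.8%. Dnase1l3, a nuclease of sinusoids, was found in 8.51% and 31.1%, and Adam23 in 8.51% and 19.7%. Other genes of the sinusoid list went either way or lay close together, with Cldn5 in 36.2% and 19.7% after thinning. In CPM, without thinning, the log2 ratio of members with Gja5 over those without was 0.73 for Tspan7, -0.08 for Stab1 and -0.20 for Mrc1. Lower with Gja5, as Dnase1l3 was, were Bmp2 at -1.88, Lyve1 at -1.64, Plxnc1 at -1.30 and Maf at -0.58, with 95% intervals below 0. For Gpr182, a gene the rule used, the log2 ratio was 0.69 with a 95% interval of -0.06 to 1.45. Ednrb, at 36.2% and 31.1% after thinning, and Msr1, at 34.0% and 31.1%, lay close together. The rule genes Mecom and Nrg1 differed as well after thinning, at 85.1% and 70.5% and at 70.2% and 50.8%. Genes of other cell types also differed in CPM without thinning. The log2 ratio was -4.20 for S100a9, -2.69 for Cd74 and -1.75 for Ptprc, but 1.96 for Cd79a. What these differences add to the other values was not tested.

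**Figure D4:**
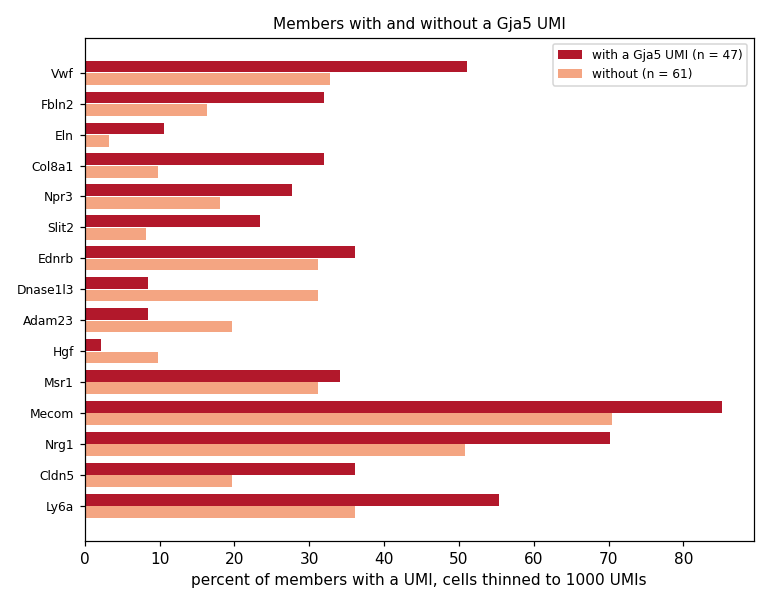
Percent of members with a UMI of each gene after thinning to 1000 UMIs per cell, for 47 members with a Gja5 UMI and 61 without. Col8a1, Slit2, Fbln2 and Vwf have the longer bar with Gja5, and Dnase1l3 and Adam23 without it.

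The limit on sinusoidal genes decides much of the membership. Without it, 404 barcodes met the rule, so it left out 293 that also held at least 4 vessel UMIs. Those 293 had a median of 4164 UMIs against 2894 in members, so depth differs along with the limit, and its part was not tested. They held Timp3 at 1631 CPM, Vegfc at 613 CPM, Efnb2 at 361 CPM and Jag1 at 365 CPM, beside 1421, 664, 367 and 484 CPM in members. Gja5 stood at 137 CPM and Col8a1 at 139 CPM in them, below members and above the 0 UMIs of sinusoidal barcodes. Kdr stood at 690 CPM, Mrc1 at 683 CPM and Fcgr2b at 488 CPM, between members and sinusoidal barcodes. The counting intervals of these 3 genes do not overlap among the 3 groups. Lyve1 stood at 280 CPM, beside 79.9 in members and 238 in sinusoidal barcodes, with an interval that overlaps that of sinusoidal barcodes.

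**Figure D5:**
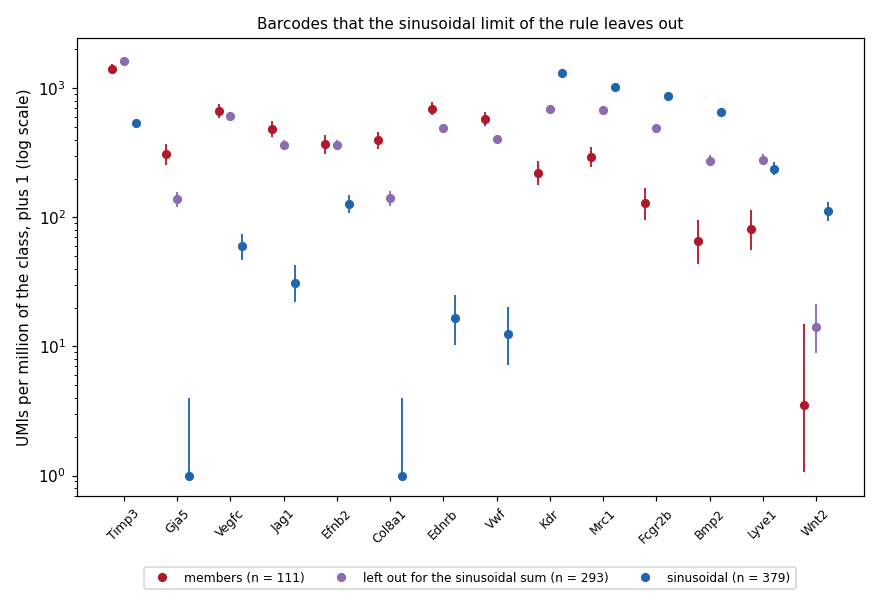
Levels of 14 genes in members, in the 293 barcodes left out for the sinusoidal sum and in sinusoidal barcodes, as CPM plus 1 on a log axis with the 95% counting interval. The barcodes left out overlap in their intervals with members for Vegfc, Efnb2 and Wnt2, and with sinusoidal barcodes for Lyve1. They lie between both other groups for Kdr, Mrc1, Fcgr2b and Bmp2.

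Markers of other cell types were checked in members. Of the 111, 8 reached the minimum of another class, which was 4 UMIs of B cell genes in 3 members, 3 UMIs of T cell genes in 1, 50 UMIs of neutrophil genes in 2 and 20 UMIs of class II antigen presentation genes in 5. The class II genes Cd74 and H2-Aa were counted as higher than in central vein barcodes, but 1 member held 222 of 436 Cd74 UMIs. The mesenchymal genes Col1a2, Pdgfrb, Acta2 and Tagln, which the rule did not use, had 0 UMIs, as had the platelet genes Pf4, Ppbp and Gp9. Bile duct transcripts summed to 30.0 CPM in members, 678 in sinusoidal and 33.8 in central vein barcodes, and plasma cell transcripts to 365, 1658 and 113 CPM. Epcam, Krt18, Spp1, Tm4sf4, Pkhd1 and Jchain are thus among the 343 genes lower than in sinusoidal barcodes. Hepatocyte transcripts summed to 312 CPM in members, 469 in sinusoidal and 244 in central vein barcodes. Globin and other erythroid transcripts summed to 17335, 18348 and 15636 CPM. The part of these transcripts in the counts of higher and lower genes was not tested.

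In the library labelled P180, 8 of 9582 barcodes (0.0835%, 0.0361 to 0.164%) met the same rule. Of these, 4 held at least 2 of the rule genes and at least 2 of the general endothelial genes, with 11 to 30 UMIs of Mecom and 4 to 9 of Nrg1. Of these 4, 1 also held 2977 UMIs of the globin gene Hba-a1 among 22330 UMIs, and another 860 among 9336. Of the other 4, 1 held 440 UMIs of the platelet gene Pf4 and 3 held 90 to 396 UMIs of the myeloid gene Lyz2. No comparison of levels between the labels was made on 8 barcodes. Xist, expressed from the inactive X chromosome, was found in 91.0% of members in the library labelled E18.5 and in 0 of the 8 barcodes under P180, where all 8 held Y-linked UMIs. Of 28 barcode sequences shared by the libraries, 1 belonged to a member and 0 met the rule in both.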

How the data were processed

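The authors deposited whole-number UMI counts for each gene and barcode. The file headers name Cell Ranger 7.1.0, and the submitters' processing notes add fastp, Trimmomatic, Seurat, edgeR and mm10 without saying what each did. The calling of barcodes is not described in the sources at hand. Kept barcodes had 200 or more genes, 500 or more UMIs and a mitochondrial share below 25%. UMIs were summed per class and scaled to CPM, with Poisson intervals for levels, Clopper-Pearson intervals for shares and exact conditional intervals for ratios, all at 95%. Ratios were counted past 2-fold for genes with at least 50 UMIs in either class. Doublets were kept in the main values and scored with Scrublet (scanpy 1.11.5) for an alternative. Computation used scipy 1.17.1 with numpy 2.4.6 and pandas 2.3.3 in Python 3.11.15, plots used matplotlib 3.10.9, and the ratio step was tested on simulated data.

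Named genes are those of 41 gene lists and, against each class, the 20 highest and 15 lowest by the ratio of CPM plus 10, among genes with at least 50 UMIs in both classes together and found in at least 20% of cells of the higher class, without rule and mitochondrial genes. The members and lists were chosen with earlier results of these data known.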

Additional observations from a re-analysis of the deposited data

How the results depend on the processing

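No paired analysis was possible because each stage label has 1 library. The values below follow the order higher and lower than sinusoidal, then higher and lower than central vein barcodes. The number of genes counted changes with the setting, from 4473 against sinusoidal and 1680 against central vein barcodes in the main values. With a mitochondrial limit of 10%, members numbered 33, and the counts were 91, 214, 90 and 57 among 2008 and 683 genes. The arterial median log2 ratio over sinusoidal was 4.20, over 10 genes. With at least 200 UMIs, fewer genes are counted, and the counts were 32, 103, 32 and 11 among 1079 and 239 genes. That arterial median, over 4 genes, was -0.26 in place of 2.93. With cells thinned to 1000 UMIs, the counts were 45, 186, 36 and 15 among 1403 and 271 genes. The arterial medians were 1.57 over sinusoidal, on 5 genes, and 3.55 over central vein, on 4 genes. A vessel sum of at least 3 gave 251 of 1977 genes higher than central vein. One of at least 6 gave 5 barcodes in the library labelled P180. Without the sinusoidal limit, an alternative chosen after seeing the data, members numbered 404. The counts were then 298, 214, 554 and 165 among 5991 and 5888 genes. The sinusoid median went from -1.68 to -0.79 and the arterial median over central vein from 2.44 to 1.45. The 178 barcodes with the highest Scrublet scores included 5 members, and leaving them out, median of ratios scaling, no mitochondrial limit and leaving out the 8 members with markers of another class (chosen after seeing the data) moved no count by over 1.5 times. The arterial median over central vein could not be given at 200 UMIs, where fewer than 3 genes were left.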
